A study of Mus musculus with 2 samples.

Results

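The genes described here are the mouse genes named Trim or Rnf followed by a number, 2 large families of RING-type ubiquitin ligases. Members were chosen by symbol and by a mean of at least 50 over both libraries: 106 of the 14398 genes in the deposited table met this rule, 38 TRIM and 68 RNF genes, and 5 further genes of these names lay under that floor. Both libraries were made from the mouse embryonic stem cell line 46C, which has a GFP reporter in Sox1, at passages 21 to 24, grown on gelatin with serum and the self-renewal cytokine LIF. The control culture was transfected with the empty vector PB and the other with PB-ID2, which overexpresses ID2, a helix-loop-helix protein that pairs with E proteins so that they cannot bind DNA. With 1 library per group, the differences below were not checked on replicates and carry neither an error nor a test. Single genes are called higher or lower by their value in the ID2 library relative to the control. Any such difference is one between 2 cultures. Counts of higher and lower genes, other than those at a fold, were made on whole numbers behind these values, as described below. Values are the authors' normalized values, given with the control first, their sequencing depth is not known from the table, and log2 ratios are of value + 1, which understates the ratio of low genes.

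Ubiquitin ligases choose the proteins to which ubiquitin is attached, and the RING domain holds the ubiquitin-loaded E2 enzyme beside that protein. TRIM proteins carry a RING, B-box zinc fingers and a coiled coil, followed by a C-terminal part that differs between subfamilies, and RNF proteins share little beyond the RING. In embryonic stem cells these families include TRIM28, which silences retroelements with KRAB zinc finger proteins, RNF2, which ubiquitinates histone H2A in Polycomb complexes, and the RNA-binding protein TRIM71. Symbols do not guarantee a RING: TRIM16 and TRIM44, both members here, lack one.

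The 106 genes showed no common shift. Each deposited value is a whole number of steps of a fixed size in its library, and counted on these whole numbers 51 were higher (48.1%), 54 lower and 1 equal, beside 47.2% higher and 51.5% lower among all 12679 genes above the floor. Their median log2 ratio was 0.0071, a value whose sign changed with the processing (−0.00688 on whole steps), and that of all genes was −0.00229. Both columns hold one set of whole numbers, so the median and the balance over all genes were largely fixed by how the table was made. Trim8 and Rnf169 were at least 2-fold higher (1.89% of the members, beside 2.53% of all genes), and Trim52 alone was at least 2-fold lower, beside 1.86% of all genes. At a fold of 1.5, 10 members were higher and 5 lower (9.43% and 4.72%), beside 8.00% and 6.59% of all genes. These shares lay near those of all genes.

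Set against the 500 genes nearest in mean level, 6 members lay above the 95th percentile (5.66%, beside 4.97% of all genes) and 2 below the 5th (1.89%, beside 5.01%). Those above were Trim8, Rnf169, Trim35, Trim2, Rnf168 and Trim27, at percentiles 100, 99.6, 99.4, 98.0, 97.6 and 95.8. Those below were Trim52 (1.4) and Trim3 (3.0). This position was chosen as a measure after the data were seen and describes these libraries only. It tells apart genes such as Trim35, at a level where ratios were narrow, from Trim65 (percentile 8.2), whose larger ratio lay at a level where they were wide.

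**Figure D1:**
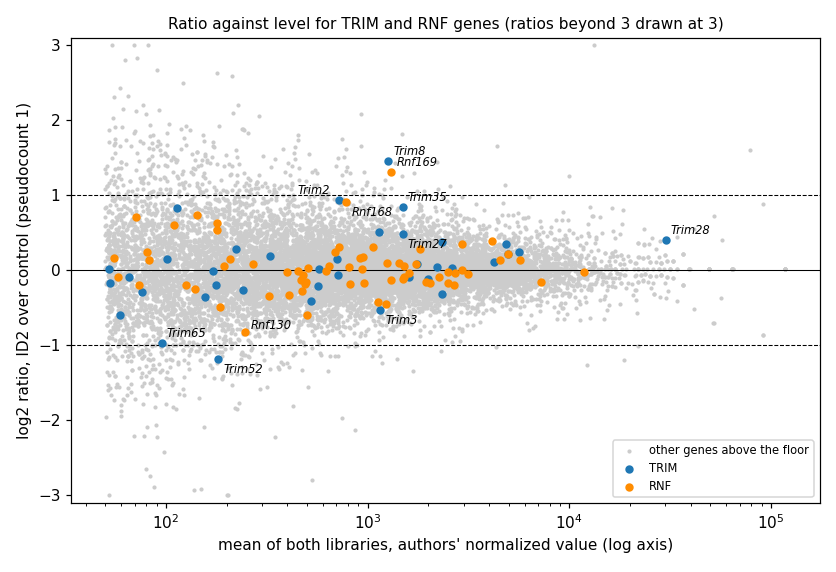
Log2 ratio of ID2 over control (vertical axis) against the mean normalized value of both libraries (horizontal log axis) for 38 TRIM genes (blue), 68 RNF genes (orange) and all other genes above the floor of 50 (grey); dashed lines mark 2-fold. Trim8 and Rnf169 stand above the upper line and Trim52 below the lower one, and ratios of all genes narrow toward the right.

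Trim8, linked to STAT and NF-κB signaling, had the largest positive ratio of the members, at 673 and 1851 (2.75-fold, log2 ratio 1.46). The authors' deposited table gives it an adjusted p of 0.0138, the 1 member under 0.05, beside 26 of all genes above the floor (0.205%). Rnf169, which binds ubiquitinated H2A at DNA breaks, stood at 754 and 1869 (2.48-fold, 1.31), with an adjusted p of 0.0513 in the authors' deposited table. Trim52, a short TRIM without a C-terminal domain, stood at 253 and 111 (log2 ratio −1.19). The authors' deposited table gives Trim52 an unadjusted p of 0.0653 and an adjusted p of 1. An unadjusted p under 0.05 was given there to 5 members, beside 4.33% of all genes above the floor: Trim8, Rnf169, Trim35 (0.00976), Trim2 (0.0156) and Rnf168 (0.0164). All 5 were higher in the ID2 library, and the share of higher genes among all genes with such a p is not given here. The authors' p-values rest on 1 library per group and may not have been computed from read counts.

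Start sites of Rnf168, Rnf169 and Trim52 are shown because RNF168 makes the histone mark that RNF169 binds, because both genes were higher, and because Trim52 was the lowest member. ID2 is known to act through E proteins, which bind the E-box CANNTG, and among its forms they prefer CAGCTG as well as the form CACCTG, which reads as CAGGTG on the other strand. Each sequence runs 5′ to 3′ on the gene's strand from 250 bases before to 50 after the start (RefSeq, GRCm38.p6), with those preferred forms in capitals. They lie at chr16:32277211-32277510 on the plus strand, chr7:99980409-99980708 on the minus strand and chr14:106105948-106106247 on the plus strand.
Rnf168: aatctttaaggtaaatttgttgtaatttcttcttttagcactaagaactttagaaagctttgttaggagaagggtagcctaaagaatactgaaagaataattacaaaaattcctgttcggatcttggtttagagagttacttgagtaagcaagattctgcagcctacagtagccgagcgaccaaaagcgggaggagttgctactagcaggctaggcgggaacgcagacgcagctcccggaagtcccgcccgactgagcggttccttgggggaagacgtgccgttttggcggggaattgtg
Rnf169: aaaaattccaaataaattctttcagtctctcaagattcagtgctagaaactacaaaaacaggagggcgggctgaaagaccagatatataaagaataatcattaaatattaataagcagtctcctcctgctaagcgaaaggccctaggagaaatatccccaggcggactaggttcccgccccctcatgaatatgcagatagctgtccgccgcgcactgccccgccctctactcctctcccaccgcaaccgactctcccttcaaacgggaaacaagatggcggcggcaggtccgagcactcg
Trim52: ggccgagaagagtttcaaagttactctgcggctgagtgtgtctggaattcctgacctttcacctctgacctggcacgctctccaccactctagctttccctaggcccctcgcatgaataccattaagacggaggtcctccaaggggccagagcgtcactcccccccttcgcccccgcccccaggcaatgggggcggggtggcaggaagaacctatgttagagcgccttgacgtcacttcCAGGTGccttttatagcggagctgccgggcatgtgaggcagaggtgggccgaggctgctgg
The windows of Rnf168 and Rnf169 held 0 matches to CANNTG, and that of Trim52 held 2, of which 1 was CAGGTG, at base 240 of the window. These genes were picked partly by their ratios, and other members differed from them. Trim2, with a log2 ratio of 0.94, had a window with 5 matches to CANNTG and a window with CAGCTG. Trim66, with a log2 ratio of −0.36, had 0 matches to CANNTG. A link between matches and ratios was not tested.

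Of the 106 members, 82 had at least 1 start in the RefSeq table; Trim8, Trim35 and Trim65 are among those that did not. CANNTG was in a window of 60 of the 82 (73.2%), beside 66.9% of the 9397 genes above the floor with a start in the table. At least 1 of the preferred forms, on either strand, was in a window of 42 members (51.2%), beside 34.6% of those genes. Genes have unequal numbers of starts, and counted per window the shares were 45.9% and 30.8%. The 42 members with such a match had a median log2 ratio of −0.0295 and the 40 others one of 0.0845; over all genes the medians were −0.0172 and 0.0140. These differences were not tested, and a match is a string of letters, not a bound site.

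Among the TIF1 genes, whose proteins join the TRIM fold to a bromodomain that reads chromatin, Trim28 stood at 25906 and 34240 (log2 ratio 0.40). Per kilobase of annotated exon (GENCODE M21, GRCm38), Trim28 had the highest control level of the 106 members, 6230, and Rnf126, named after its values were seen, followed with 1727. Trim28 made up 37.0% of the summed control value of the TRIM genes. The sum over all 38 was 1.20-fold higher in the ID2 library and 1.13-fold without Trim28, while the sum over the 68 RNF genes was 1.02-fold higher. Trim24, a cofactor of retinoic acid receptors, stood at 4052 and 4387 (0.11), and Trim33, a regulator of SMAD4, at 2190 and 2249 (0.04). Trim66 was lower, at 175 and 137 (−0.36). Partners of TRIM28 in silencing, 12 genes such as Setdb1 and the Cbx genes of heterochromatin, had a median of 0.14. By whole steps 8 were higher, 2 lower and 2 equal, the equal ones each with a log2 ratio of 0.01. The partners with the largest ratios were Smarcad1, a chromatin remodeler (2298 and 3730, 0.70), Atrx (0.33) and Hdac1 (0.31), and 0 of the 12 were 2-fold apart.

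The 4 NHL-repeat genes, RNA-binding or scaffold ligases, went both ways. Trim2, best known from neurons, stood at 496 and 949 (0.94, 1.91-fold), and its close relative Trim3 at 1367 and 945 (−0.53). Trim71, an RNA-binding protein of stem cells under let-7 control, stood at 4599 and 5346 (0.22), and Trim32, a ligase of muscle, at 573 and 578 (0.01). All 3 COS-box genes above the floor, whose proteins bind microtubules, were lower. Trim63, a ligase of muscle wasting, stood at 597 and 448 (−0.41), Trim36 at 71.7 and 47.2 (−0.59), and Trim46, which organizes axonal microtubules, at 189 and 165 (−0.20). Their median of −0.41 rests on 3 genes and came with no 2-fold difference.

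**Figure D2:**
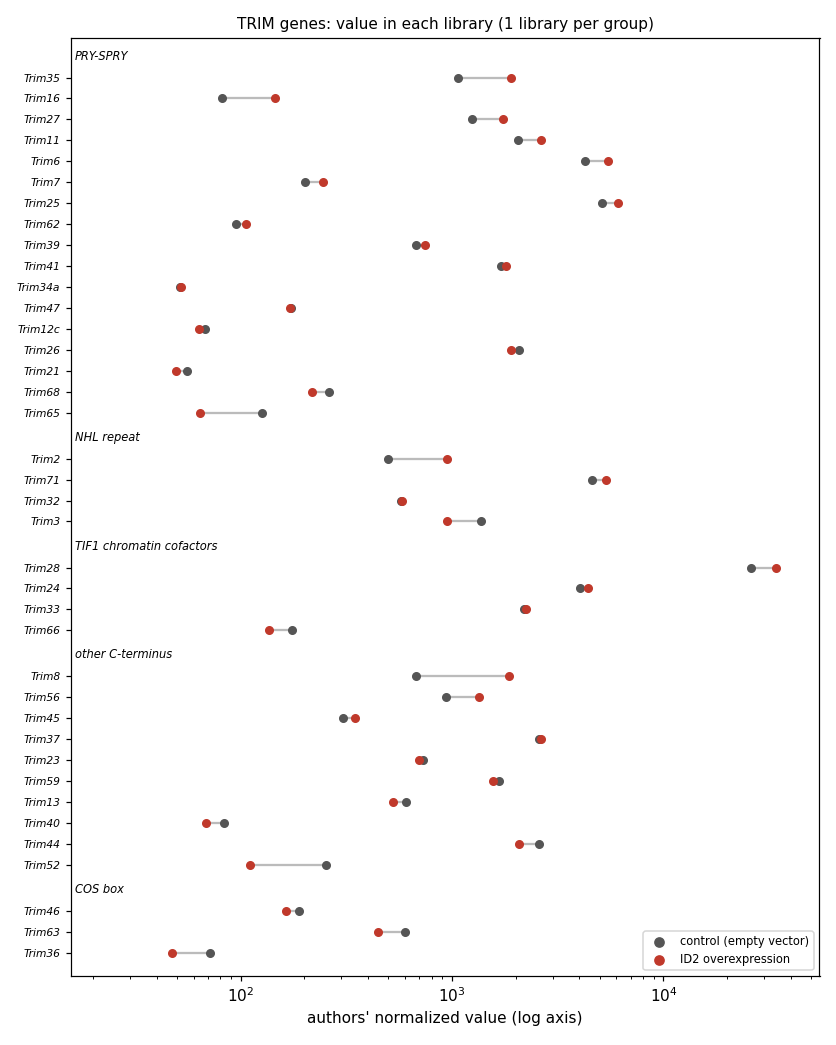
Normalized value (horizontal log axis) of each of the 38 TRIM genes in the control library (grey point) and the ID2 library (red point), grouped by C-terminal part and sorted by ratio; each point is 1 library. Trim8 (673 and 1851) and Trim52 (253 and 111) have the widest gaps, and most pairs of points nearly coincide.

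TRIM genes with a PRY-SPRY domain, a protein-binding module of many antiviral ligases, were the largest subfamily, and had a median of 0.14, with 10 of 17 genes higher and 6 lower. Trim35, linked to pyruvate kinase M2, stood at 1069 and 1911 (0.84, 1.79-fold). Trim16, which acts in autophagy of damaged membranes, was at 81.6 and 146 (0.83), close to the floor. Trim27 stood at 1246 and 1740 (0.48) and Trim6, described as a ligase acting on Myc in embryonic stem cells, at 4267 and 5444 (0.35). On the lower side, Trim65, a ligase for the RNA sensor MDA5, stood at 126 and 64.3 (−0.96). The median depended on level: above a floor of 250 it was 0.30, and that of all TRIM genes 0.13 in place of 0.02. The members nearest the floor were Trim34a (51.7 and 52.3, mean 52.0) inside and Trim43c (28.9 and 38.2, mean 33.5) outside it.

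The 10 TRIM genes with another or no C-terminal domain held both extremes, Trim8 and Trim52, with 4 higher, 6 lower, a median of −0.08 and a mean of 0.00322. Trim56, a ligase of innate immune signaling, stood at 939 and 1345 (0.52). Trim44, which lacks a RING, stood at 2582 and 2074 (−0.32). The remaining 6 ranged from 0.19 down to −0.29.

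RNF genes of chromatin and DNA damage had the highest median of the 10 groups, 0.29, with 8 of 11 higher and 3 lower. The recognition of DNA breaks uses RNF8, which starts the ubiquitin signal, RNF168, which spreads it on H2A, and RNF169, which binds the result. Rnf168 stood at 546 and 1025 (0.91, 1.87-fold) beside Rnf169 at 754 and 1869, while Rnf8 stood at 134 and 118 (−0.19). Reads of Rnf8 may be shared with an overlapping transcript. Rnf2 stood at 4331 and 4778 (0.14), and Rnf20 and Rnf40, which together ubiquitinate histone H2B, at 1686 and 1789 (0.09) and at 2584 and 3307 (0.36). Rnf4, a ligase for SUMO-tagged proteins, was lower, at 7621 and 6831 (−0.16). The single-exon genes Rnf113a1, of the spliceosome (106 and 179, 0.74), and Rnf113a2 (643 and 796, 0.31; named after its values were seen) were higher. Without these and Rnf169, the members that have 80% or more of their transcript in 1 exon, the median of this group was 0.11. It was then no longer the highest: without members of that class the NHL-repeat genes had a median of 0.22 and the PRY-SPRY genes 0.14.

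Genes that work with these ligases are given beside this group, and the difference from it was not tested. Of 12 partners in DNA damage and H2B ubiquitination, 7 were higher and 5 lower, and they had a median of 0.05 and a mean of −0.00874. Ube2b, an E2 enzyme of H2B ubiquitination, had the largest ratio (3204 and 2315, −0.47), followed by Rad18 (−0.28) and Paf1 (0.27). Ube2a, another E2 gene of this list, stood at 665 and 675 (0.02). Of 20 Polycomb partners of RNF2, 11 were higher and 9 lower (median 0.03), for a mean of −0.06. The Polycomb subunits Pcgf5 (−0.68) and Phc3 (−0.45) were among the lower ones.

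**Figure D3:**
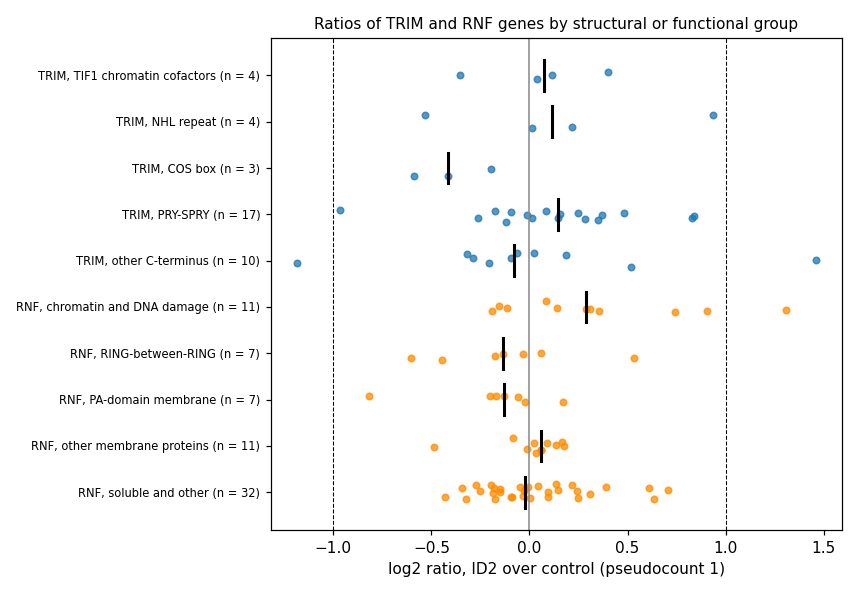
Log2 ratio of ID2 over control (horizontal axis) for each of the 106 genes, by group, with TRIM genes in blue and RNF genes in orange; black bars are group medians, the grey line is the median of all genes above the floor and dashed lines mark 2-fold. Medians run from −0.41 (COS box, 3 genes) to 0.29 (chromatin and DNA damage, 11 genes), and every group spans the grey line except the COS-box genes.

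RING-between-RING ligases pass ubiquitin through a cysteine of their own, and 5 of 7 were lower, with a median of −0.13. Rnf144a stood at 603 and 397 (−0.60) and Rnf19b at 1429 and 1047 (−0.45), while Rnf144b, the closest relative of Rnf144a, was higher at 145 and 211 (0.54). Rnf31, the catalytic subunit that makes linear ubiquitin chains, stood at 2165 and 1919 (−0.17). Among 5 genes that act with RNF31 or remove such chains, 2 had the higher value in the ID2 library and 3 the lower one, for a median of −0.00633 and a mean of 0.11. Spata2 (0.39), Otulin (0.32) and Cyld (−0.15) had the largest ratios.

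Membrane ligases with a protease-associated domain were lower in 6 of 7 cases, with a median of −0.13 and small single ratios. Rnf130 was the exception in size, at 316 and 179 (−0.82). Rnf128, known from T cell anergy, stood at 78.6 and 68.3 (−0.20) and Rnf13 at 1013 and 898 (−0.17). Rnf43, which removes Wnt receptors from the cell surface, was the 1 higher gene and lay close to the floor (51.7 and 58.3, 0.17). A list written for Wnt receptor turnover held 7 other genes that passed the floor. Most of these are Axin or tankyrase genes, which do not encode the ligases that remove the receptors. Of the 7, 6 were lower, and their median was −0.35. Rspo1 stood at 105 and 72.3 (−0.54), Axin2 at 269 and 201 (−0.42) and Tnks, a tankyrase, at 3027 and 2295 (−0.40). Rnf146, which degrades Axin marked by tankyrases, stood at 514 and 426 (−0.27), with reads that may be shared with the neighbouring Echdc1.

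Other membrane RNF genes lay close to 0 apart from Rnf122, with 8 of 11 higher and a median of 0.06. Rnf122 stood at 217 and 155 (−0.48). Rnf5, of degradation at the endoplasmic reticulum (892 and 1006), and Rnf26, of endosome positioning (866 and 973), were both at 0.17, and Rnf103 was at 0.13. Both Rnf5 and Rnf26 may share reads with other annotated transcripts.

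The 32 soluble and other RNF genes had 13 higher and 19 lower, a median of −0.02 and a mean of 0.03. The largest ratios belonged to low genes: Rnf225 stood at 53.7 and 88.4 (0.71), Rnf125, a ligase for the RNA sensor RIG-I, at 139 and 217 (0.64), and Rnf39 at 86.6 and 133 (0.61). Rnf141 was the lowest, at 1286 and 955 (−0.43). Rnf220 stood at 4612 and 5366 (0.22), and Rnf17, a tudor protein of the germline, at 2749 and 2688 (−0.03). Over all 68 RNF genes the median was −0.0103 and the mean 0.04, so that the sign depended on the summary.

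**Figure D4:**
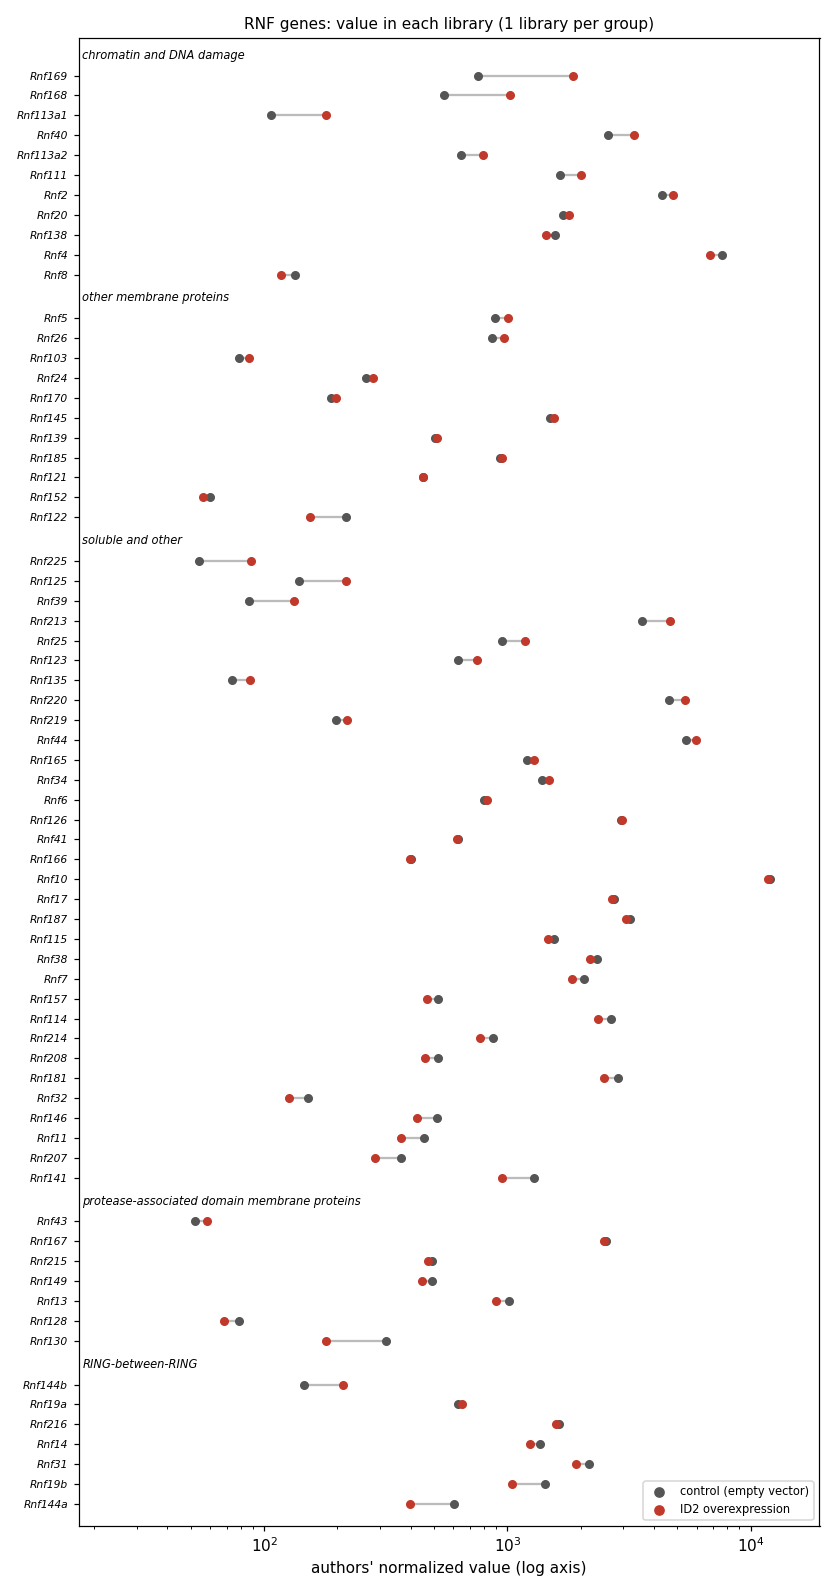
Normalized value (horizontal log axis) of each of the 68 RNF genes in the control library (grey point) and the ID2 library (red point), by group and sorted by ratio; each point is 1 library. Rnf169 (754 and 1869) and Rnf168 (546 and 1025) have the widest gaps to the right and Rnf130 (316 and 179) the widest to the left.

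Other parts of the ubiquitin system were set beside these families. Other RING ligases, 52 genes past the floor, had a median of −0.04, with 22 higher, 30 lower and 0 at least 2-fold apart; Traf6, an adaptor ligase of innate signaling (396 and 776, 0.97), Pml, the organizer of nuclear bodies (3252 and 6084, 0.90), and Birc3 (0.63) had the largest ratios. Of 29 ubiquitin E1 and E2 enzymes, 12 were higher and 16 lower (median −0.05), led by Ube2b, Ube2l3 (0.40) and Ube2e2 (−0.38). F-box, cullin and Usp genes, 106 above the floor, had 60 higher and 45 lower with a median of 0.10, and 3 of them, Fbxw10 (1.03), Fbxo41 (1.03) and Fbxo10 (1.02), were at least 2-fold higher. None of these differences between sets was tested.

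The genes were also split by level into 3 equal groups of all genes. In the upper group, with means above 1405, the log2 ratios of 37 members had a 5th and 95th percentile of −0.18 and 0.42, beside −0.41 and 0.47 for other genes. In the middle group these were −0.47 and 1.03 for 36 members, among them Trim8 and Rnf169, beside −0.55 and 0.62 for other genes. In the lower group, with means under 398, they were −0.88 and 0.72 for 33 members, beside −0.996 and 1.08. The members' range was thus narrower than that of other genes in the upper and lower groups and reached higher in the middle one, with no test of these differences. Exon structure moved with the ratios of all genes: where 1 exon held 80% or more of the transcript (2365 genes), 6.13% were at least 2-fold higher, beside 2.53% of all genes, and 2.79% at least 2-fold lower, beside 1.86%. In that class 53.6% of genes were higher by whole steps and 45.9% lower. Among members this class held 20 genes, 1 at least 2-fold higher (Rnf169, 87.2% in 1 exon) and 1 lower (Trim52, a single exon), with 10 higher, 10 lower and a median of 0.02. Trim8, with 6 exons, lay outside this class. The part of exon structure in the ratio of Rnf169 was not tested.

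For 11 members at least 20% of the transcript was also found in transcripts of another gene, on either strand, and the kit does not mark strand; Rnf26 (96.2%), Rnf146 (76.5%) and Trim34a (61.9%) were the most affected, and none of the 11 was 2-fold apart. Genes under the floor were Rnf182 (14.9 and 30.1), Trim29 (35.8 and 16.1), Trim14 (28.9 and 23.1), Trim72 (24.9 and 30.1) and Trim43c, at levels where ratios spread most.

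Id2 itself stood at 324 and 26225, in the direction of the labels. All 10 markers of embryonic stem cells were listed, at 2710 or more in the control and 2954 or more in the ID2 library. Their sums were 133857 and 163041. Of 12 fibroblast and feeder markers 7 were listed, with sums of 2418 and 1698, of 8 endoderm markers 5 (333 and 386), and of 7 neural markers 5 (2155 and 2642). Of the stem cell markers, 9 were higher by whole steps, 0 lower and 1 equal, with a median log2 ratio of 0.28. The fibroblast, endoderm and neural sums hold markers that went opposite ways. Of the neural markers above the floor, Sox1 (386 and 782) and Tubb3 were higher in the ID2 library while Nes (425 and 231), Neurod1 and Map2 were lower, for a median log2 ratio of −0.52. Of the endoderm markers, Sox7 stood at 16.9 and 127 and Gata4 at 146 and 76.4. Col3a1, Dcn, Lum, Postn and S100a4 of fibroblasts, Sox17, Foxa2 and Afp of endoderm, and Pax6 of neural cells were among those not listed. The part of other cells in the members' ratios was not tested. Fewer cells of a type and less RNA per cell cannot be told apart here.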

How the data were processed

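Per the labels' protocols, RNA was harvested in Trizol and sequenced from TruSeq v2 libraries. STAR, DESeq and build mm9 are named in the submitters' processing notes; the versions, annotation and counter were not given in these sources. What was deposited is a table with the authors' normalized signal per gene and library, with the fold (ID2 over control), its log2, and p-values before and after adjustment, as the authors deposited them. Each signal value was a whole number of steps (0.995 in the control, 1.00 in the ID2 library), and once sorted these whole numbers were the same in both libraries at every rank (0 differences). Both libraries thus hold one distribution, which largely fixes the balance and median over all genes used here for comparison. The values are not read counts, depth is unknown, and no interval was computed; whether the authors' p-values were computed from read counts is not given in the sources used here.

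Ratios used a pseudocount of 1 and genes with a mean of at least 50. No test was run, with 1 library per group. Groups of members and partner lists were written from textbook knowledge, and members and lists were chosen with earlier results of these data known. Named genes were members at least 2-fold apart, up to 4 per group with the largest absolute ratio, 18 members known from stem cells, and up to 3 per partner list; others are identified, and 1 gene that this rule names is not reported here. Members were matched by symbol to GENCODE M21 (106 of 106) and to RefSeq promoters (82 of 106), both on GRCm38; shared sequence was counted in words of 50 bases. Alternatives covered scaling, pseudocount, floor, fold, the authors' log2 column, exon structure and shared sequence. Counting was run on simulated data with large added shifts and an even spread at all levels, unlike these data. That run checks the code only. Python 3.11.15, numpy 2.4.6 and pandas 2.3.3 were used.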

Additional observations from a re-analysis of the deposited data

How the results depend on the processing

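No paired analysis was possible because each group has 1 library and the labels give no replicate numbers. Of 577 recomputed values 557 stayed within a tolerance of 0.1 on the log2 scale or 1.5 times for a count, 20 moved and 0 reversed, where a reversal was counted only for a ratio of at least 2-fold. Of log2 values near 0, 3 changed sign: the median of the members (0.0071) was −0.00688 on whole steps and −0.00317 without members with 80% or more in 1 exon, and Trim32 (0.0115) was −0.0025 on whole steps. Several alternatives (scaling, whole steps, pseudocounts) could hardly move a ratio, so this is no measure of stability; no log2 ratio of a named gene moved past the tolerance. The counts of members at least 2-fold apart are small and moved most. Without a floor 2 members were lower, and with a floor of 250 there were 0 lower, with medians of 0.13 for TRIM and 0.30 for PRY-SPRY genes. At a fold of 1.5 there were 10 higher and 5 lower, and at a fold of 4 there were 0 and 0. Without members with 80% or more in 1 exon, 1 was higher and 0 lower, and the medians of the NHL and the chromatin and DNA damage groups were 0.22 and 0.11. Apart from those at another fold, where only the cutoff moved, these changes follow from which genes each setting keeps. Over the whole table, the counts of genes 2-fold higher and lower were 551 and 470 without a floor, 105 and 53 with a floor of 250, 1014 and 835 at a fold of 1.5, and 23 and 18 at a fold of 4. Leaving out members that may share reads changed no count or median past the tolerance.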

Other observations

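The table held 8 rows with names that read as dates in March, as spreadsheet programs rewrite the symbols of the MARCH family, membrane RING ligases, and of the mitochondrial Marc genes. These rows were assigned to no gene. Of the 8, the row 9-Mar had the largest log2 ratio (0.57, from 406 to 605), the row 6-Mar stood at 0.17, the row 5-Mar at −0.24 (2703 and 2289) and the row 7-Mar at −0.23 (4144 and 3536). The name 2-Mar occurred in 2 rows (−0.14 and −0.04), and none of the 8 was 2-fold apart.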
